A study of Mus musculus with 9 samples.

Results

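The transcripts described here encode the chains of the T cell receptor and of the CD3 complex, together with Cd163l1, a scavenger receptor gene (Scart1) known in the mouse from gamma delta T cells. The 10 genes, of 55342 named in the files, were chosen by symbol: the CD3 chains Cd3d, Cd3e and Cd3g, the zeta chain Cd247, the alpha beta constant regions Trac, Trbc1 and Trbc2, the gamma delta constant regions Trdc and Tcrg-C1, and Cd163l1. They were read in 9 bulk RNA libraries from labial mucosa biopsies of 3 mouse strains, with 3 libraries each. The strains are Tac111 (replicates 1, 2 and 3), Tac146 (replicates 2, 3 and 4) and B6 (replicates 1, 2 and 3). All mice were infected before biopsy, and the sources used here name no agent, dose or time. The labels speak of mutations without naming an allele, and give neither sex nor age. They name T cells as the cell type of the Tac111 and Tac146 libraries and ILC1 (type 1 innate lymphoid cells) as that of the B6 libraries, so strain and labelled cell type cannot be told apart in either comparison with B6.

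A T cell receptor is a pair of clonal chains, alpha with beta or gamma with delta, each made of a variable part joined to a constant region by V(D)J recombination. The pair reaches the cell surface only together with the CD3 gamma, delta and epsilon chains and the zeta chain, whose cytoplasmic tyrosine motifs (ITAMs) carry the signal. Alpha beta T cells mostly read peptides on MHC molecules, and gamma delta T cells are known in the mouse for settling in skin and mucosal epithelia. Innate lymphoid cells and natural killer cells show no T cell receptor on their surface, yet can carry zeta and some unrearranged constant-region transcripts.

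Total expected counts, the deposited read estimates per gene, ran from 27192359 to 46456500 per library, and 4 keratinocyte genes alone took 6.06% to 9.55% of the counts. Lymphocyte transcripts were a trace: 13 T cell markers, 3 of them the CD3 chains, summed to 0.00164% to 0.00186% of counts in Tac111, 0.00173% to 0.00193% in Tac146 and 0.00232% to 0.00267% in B6. The libraries therefore look like whole mucosa and not like the sorted cells their labels name, and in such tissue fewer cells of a type cannot be told apart from less RNA per cell. Levels below are in CPM, the counts of a library rescaled to a shared total with TMM factors. In CPM the 13 T cell markers summed to 16.1 to 19.4 in Tac111, 17.6 to 18.8 in Tac146 and 22.6 to 26.0 in B6. Most of each sum was Cd5, with means of 8.86, 8.23 and 8.36 CPM, and Trbc2, with 6.71, 5.97 and 6.42 CPM. Of the 13 markers, 6 were at 0 in all Tac111 libraries, 1 in Tac146 and 0 in B6. A call is an edgeR adjusted p under 0.05 over 16523 genes. Whether each library is an animal of its own is not stated in the labels, so p-values speak of the spread among these samples only, and that spread may be technical.

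The 3 CD3 chains were at 0 in every Tac111 library, scarce in Tac146 and highest in B6. Cd3g, the gamma chain (chromosome 9, 44969572-44980431, minus strand, GRCm38), had 0, 0 and 0 expected counts in Tac111, 32, 15 and 13 in Tac146, and 100, 58 and 73 in B6. No library of one strain overlapped with those of another. Cd3e, the epsilon chain (chromosome 9, 44998740-45009627, minus strand), had 0, 0 and 0 expected counts in Tac111, 8, 7 and 6 in Tac146, and 71, 28 and 36 in B6, again with no overlap. Cd3d, the delta chain (chromosome 9, 44981786-44987339, plus strand), had 0, 0 and 0 in Tac111, 2, 1 and 0 in Tac146, and 41, 19 and 23 in B6. Tac111 and Tac146 overlapped for Cd3d at 0, and both lay below every B6 library.

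Measured against B6, Tac111 was at least 71.2-fold lower for Cd3g, at least 41.6-fold for Cd3e and at least 25.6-fold for Cd3d, taking 3 counts over the strain as the limit that a count of 0 allows. These limits and the counting intervals below cover counting error only. EdgeR gave adjusted p = 0.0005 for Cd3g, 0.000728 for Cd3e and 0.00247 for Cd3d, and all 3 calls held in each alternative that tested the gene. In Tac146 against B6, Cd3g fell 4.7-fold (95% counting interval 3.53 to 6.36, edgeR log2 fold change -2.22, SE 0.33, adjusted p = 0.0405). Cd3e fell 7.85-fold (4.93 to 13.1, log2 fold change -2.89, SE 0.37, edgeR adjusted p = 0.0161). Cd3d, with 3 counts in all Tac146 libraries together, was 33.8-fold lower (11.2 to 167, log2 fold change -4.86, SE 0.59), with an edgeR adjusted p of 0.0125. Its log2 fold change was -5.62 without Tac146 replicate 2 and -4.27 without Tac146 replicate 4. These calls leaned on single libraries. Cd3d lost its edgeR call without Tac146 replicate 3 (adjusted p = 0.0752), B6 replicate 2 (0.0529) or B6 replicate 3 (0.0537). Cd3e lost it with any of the Tac146 libraries left out (edgeR adjusted p 0.0674 to 0.0737), and without B6 replicate 1 (0.0538) or B6 replicate 3 (0.0619). Cd3g lost it without Tac111 replicate 3 (edgeR adjusted p = 0.052), Tac146 replicate 3 (0.182), or Tac146 replicate 4 (0.0581), and with any of the B6 libraries left out (0.124 to 0.154).

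Tac111 and Tac146 also differed from each other. Tac111 was at least 15.1-fold lower than Tac146 for Cd3g (edgeR adjusted p = 0.00411) and at least 5.3-fold lower for Cd3e (edgeR adjusted p = 0.0194). The Cd3e call between those strains was lost without Tac111 replicate 3 (edgeR adjusted p = 0.0581), without Tac146 replicate 3 (0.0521). With only the 6 libraries of the 2 strains, neither Cd3g nor Cd3e passed the filter, and neither was tested. Cd3d, at 0 and 3 counts, was not called between them (edgeR adjusted p = 0.23). Markers of other cells also differed among the strains. The summed level of 2 endothelial markers was 43.7 to 48.1 CPM in Tac111, 72.6 to 84.1 in Tac146 and 78.2 to 96.5 in B6, and that of 6 macrophage and dendritic cell markers was 51.3 to 58.2, 69.1 to 105 and 82.6 to 95.6 CPM. For 4 skeletal muscle markers it was 20100 to 22000 CPM in Tac111, 11700 to 18500 in Tac146 and 20200 to 22600 in B6. None of these markers was at 0 in all libraries of a strain, and their part in the CD3 levels was not tested. Cd3g was the CD3 chain with the most counts in both Tac146 and B6: per kilobase of its longest transcript it averaged 0.474 CPM in Tac146 and 2.22 CPM in B6, against 0.12 and 0.88 CPM for Cd3e and 0.0155 and 0.495 CPM for Cd3d. Cd3e overlaps Gm48720 on its own strand and Gm48719 on the other, and its counts could hold reads of either.

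**Figure D1:**
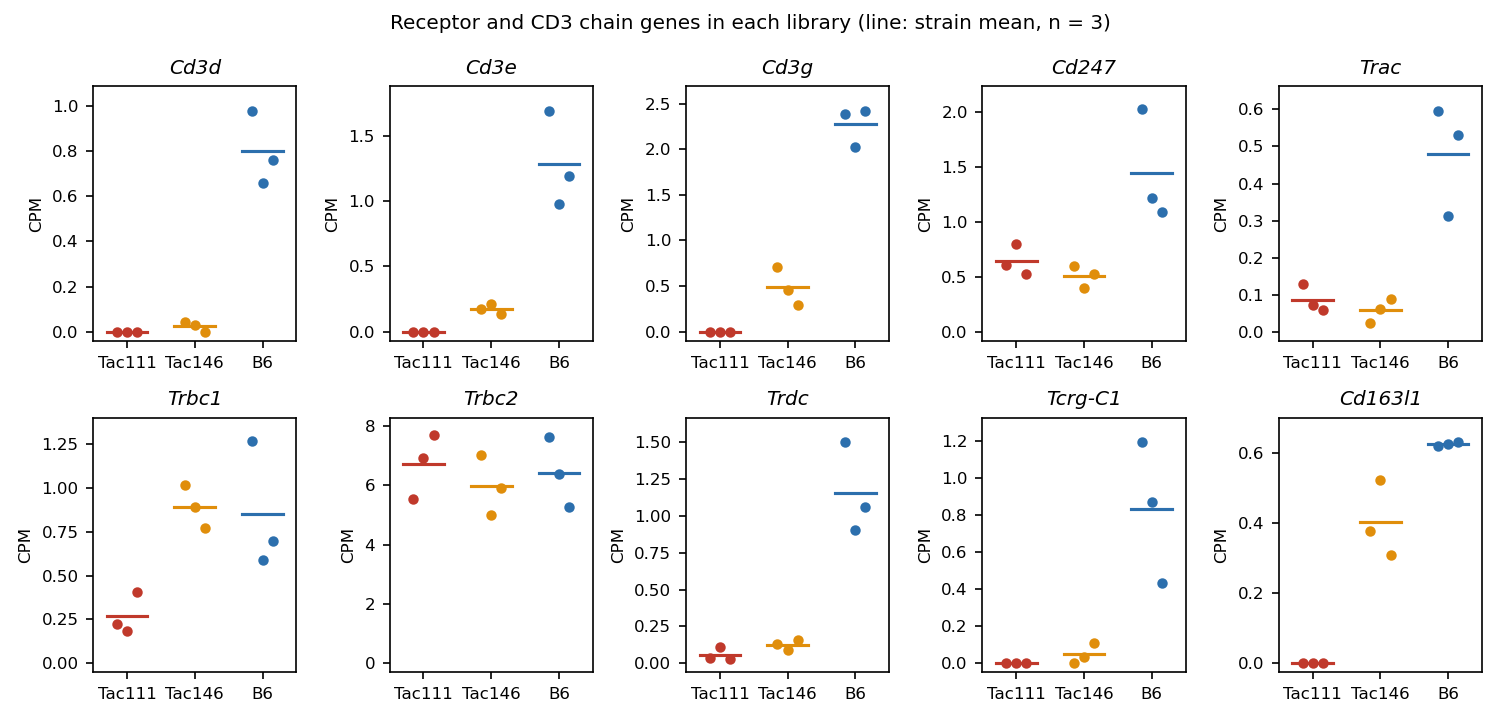
Level of each of the 10 genes (vertical axes, CPM, each panel with its own scale from 0) in the 3 libraries of Tac111, Tac146 and B6 (horizontal axis), with a line at the strain mean. Cd3d, Cd3e, Cd3g, Tcrg-C1 and Cd163l1 sit at 0 in all Tac111 libraries, and Trbc2 sits between 5.01 and 7.68 CPM in all 9 libraries.

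Cd3g and Cd3d are neighbours that are transcribed away from each other, with starts 1355 bases apart, and Cd3e lies beside Cd3d on the other side, 11401 bases from end to end. Because these 3 genes were low together in both Tac strains, the 250 bases before each start are shown, from RefSeq on GRCm38.p6, where 5 of the 10 genes had an entry. Capitals mark E-boxes (CANNTG, which reads as the same pattern on both strands), the letters bound by E proteins of lymphocyte development.
Cd3g, chr9:44980432-44980681, minus strand: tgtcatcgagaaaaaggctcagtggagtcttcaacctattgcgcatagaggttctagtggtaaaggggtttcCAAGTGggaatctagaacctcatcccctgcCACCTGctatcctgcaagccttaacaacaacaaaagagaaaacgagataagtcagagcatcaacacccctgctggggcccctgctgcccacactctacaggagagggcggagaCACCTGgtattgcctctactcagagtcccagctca
Cd3d, chr9:44981536-44981785, plus strand: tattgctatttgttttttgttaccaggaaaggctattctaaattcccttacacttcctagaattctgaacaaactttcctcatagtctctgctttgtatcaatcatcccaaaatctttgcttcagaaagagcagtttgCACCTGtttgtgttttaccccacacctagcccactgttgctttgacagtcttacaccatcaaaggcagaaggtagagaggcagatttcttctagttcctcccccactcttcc
Cd3e, chr9:45009612-45009861, minus strand: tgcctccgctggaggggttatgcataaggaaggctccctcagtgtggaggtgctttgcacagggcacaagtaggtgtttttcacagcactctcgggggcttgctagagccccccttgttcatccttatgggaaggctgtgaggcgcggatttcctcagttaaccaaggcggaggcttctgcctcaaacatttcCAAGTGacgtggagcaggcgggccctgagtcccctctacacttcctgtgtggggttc
The window of Cd3g held 3 E-boxes, that of Cd3d 1 and that of Cd3e 1. Of 32851 promoter windows of this length, 66.2% held at least 1, so the pattern is common. The RUNX letters TGTGGT, searched on both strands, were in none of these 3 windows, against 14.0% of all windows.

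Cd247, the zeta chain (chromosome 1, 165788681-165877277, plus strand), kept a level in every library. It had 19, 22 and 18 expected counts in Tac111, 27, 13 and 24 in Tac146, and 85, 35 and 32.9 in B6. All Tac111 and Tac146 libraries lay below all B6 libraries in CPM, and those of Tac111 and Tac146 overlapped. Cd247 was 2.4-fold lower in Tac111 than in B6 (counting interval 1.77 to 3.3), which edgeR did not call (adjusted p = 0.0649, DESeq2 0.0391). In Tac146 against B6 it was 2.92-fold lower (2.17 to 3.97) and again not called by edgeR (adjusted p = 0.128, DESeq2 0.0217). Zeta is also used by natural killer cell receptors. It made up all of the counts of zeta and the 3 CD3 chains in Tac111, 39.1%, 36.1% and 55.8% of them in Tac146, and 28.6%, 25.0% and 20.0% in B6. Cd247 overlaps 6 annotated genes, among them Pou2f1 on the other strand, whose reads could be counted with it.

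The alpha and beta constant regions did not move together. Trac, the alpha constant region (chromosome 14, 54220521-54224206, plus strand), had 4, 2 and 2 expected counts in Tac111, 1, 2 and 4 in Tac146, and 25, 9 and 16 in B6. Both Tac strains lay below every B6 library and overlapped with each other. Trac fell 5.78-fold in Tac111 against B6 (counting interval 2.72 to 14.1, edgeR adjusted p = 0.0237), a call that was lost without Tac111 replicate 2 (edgeR adjusted p = 0.105), Tac111 replicate 3 (0.104), B6 replicate 1 (0.0869) or B6 replicate 3 (0.0821). In Tac146 against B6 it fell 8.72-fold (3.94 to 22.8, edgeR adjusted p = 0.0434), a call lost whichever of the 9 libraries was left out (edgeR adjusted p 0.0666 to 0.165 for B6 libraries, 0.0833 to 0.182 for Tac146 libraries and 0.0765 to 0.102 for Tac111 libraries).

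Trbc2, a beta constant region (chromosome 6, 41546730-41548352, plus strand), overlapped among all 3 strains. It had 173.16, 191.26 and 263.51 expected counts in Tac111, 317.01, 163.33 and 267.4 in Tac146, and 320.22, 183.13 and 159.09 in B6. In CPM it averaged 6.71 ± 1.08 in Tac111, 5.97 ± 1.01 in Tac146 and 6.42 ± 1.19 in B6 (SD, n = 3 each). The log2 fold change was 0.06 in Tac111 against B6 (95% interval -0.35 to 0.47, edgeR adjusted p = 0.875), and -0.11 in Tac146 against B6 (-0.51 to 0.3, edgeR adjusted p = 0.905). Per kilobase Trbc2 was the highest of the 10 genes in each strain, at 9.69 CPM in Tac111, 8.62 CPM in Tac146 and 9.28 CPM in B6. The next were Trbc1 at 0.367 CPM in Tac111 and 1.21 CPM in Tac146, and Cd3g at 2.22 CPM in B6.

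Trbc1, the other beta constant region (chromosome 6, 41538218-41539881, plus strand), separated Tac111 from Tac146. It had 6.84, 4.74 and 14.49 expected counts in Tac111, 45.99, 28.67 and 34.6 in Tac146, and 52.78, 16.87 and 20.91 in B6. In CPM the Tac111 libraries lay below all others, while Tac146 and B6 overlapped. Trbc1 fell 3.2-fold in Tac111 against Tac146 (counting interval 2.07 to 5.12, edgeR adjusted p = 0.0325), a call lost without Tac111 replicate 1 (edgeR adjusted p = 0.075), Tac111 replicate 2 (0.0883), Tac146 replicate 2 (0.0544) or Tac146 replicate 3 (0.0765). Against B6 it was 3.24-fold lower in Tac111 (2.07 to 5.22) and was not called by edgeR (adjusted p = 0.0523, DESeq2 0.0197). Without Tac146 replicate 4 edgeR called it (adjusted p = 0.047). In Tac146 against B6 the log2 fold change was 0.04 (95% interval -0.71 to 0.8, edgeR adjusted p = 0.986).

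The split between Trbc1 and Trbc2 is in part an estimate, because the genes share long stretches of sequence. Exon 1, which encodes most of the constant domain, is 375 bases in each and differs at 1 base, C260A, written with the Trbc1 base first and counted from the first base of the exon. Bases 211 to 310 of exon 1 and the whole of exon 3 are shown from GENCODE transcripts on GRCm38 to set the part that cannot be told apart beside the part that can. Capitals mark the bases that differ.
Trbc1 exon 1, chr6:41538428-41538527, plus strand: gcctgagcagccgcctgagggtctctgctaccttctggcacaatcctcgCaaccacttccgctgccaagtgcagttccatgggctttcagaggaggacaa
Trbc2 exon 1, chr6:41546940-41547039, plus strand: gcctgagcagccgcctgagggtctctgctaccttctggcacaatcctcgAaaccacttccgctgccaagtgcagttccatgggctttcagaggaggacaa
Trbc1 exon 3, chr6:41539229-41539335, plus strand: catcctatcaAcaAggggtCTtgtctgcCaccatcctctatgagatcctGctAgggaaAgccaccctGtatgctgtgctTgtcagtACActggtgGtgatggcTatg
Trbc2 exon 3, chr6:41547772-41547878, plus strand: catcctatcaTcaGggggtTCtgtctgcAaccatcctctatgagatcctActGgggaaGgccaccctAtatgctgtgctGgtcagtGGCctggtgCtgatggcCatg
Exon 3 has 107 bases in each gene and differs at 15, and over 518 coding bases 23 differ (95.6% identical). Of the 50-base windows of the Trbc2 transcript, 44.0% also occur in Trbc1, and 41.1% of those of Trbc1 occur in Trbc2. For 100-base windows these shares are 30.9% and 28.7%, so most windows are particular to 1 gene. The number of counts given to each gene is therefore still in part an estimate, as its fractions show. Their sum does not depend on that split: it was 180, 196 and 278 counts in Tac111, 363, 192 and 302 in Tac146, and 373, 200 and 180 in B6. In CPM the summed beta constant regions ran from 5.77 to 8.08 in Tac111, from 5.9 to 8.03 in Tac146 and from 5.96 to 8.9 in B6, so the strains overlapped. Trbc1 took 3.83% ± 1.24 of that sum in Tac111, 13.1% ± 1.8 in Tac146 and 11.5% ± 2.86 in B6 (SD, n = 3 each).

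The gamma delta constant regions were low in both Tac strains. Trdc, the delta constant region (chromosome 14, 54142851-54148868, plus strand), had 1, 3 and 1 expected counts in Tac111, 6, 3 and 7 in Tac146, and 63, 26 and 32 in B6. Every Tac library lay below every B6 library, and the Tac strains overlapped in CPM. Trdc fell 22.4-fold in Tac111 against B6 (counting interval 9.33 to 70.2, log2 fold change -4.35, SE 0.47, edgeR adjusted p = 0.00079). Tac111 replicate 2 held 3 of the 5 counts, and without it the log2 fold change was -5.11. In Tac146 against B6 it fell 9.24-fold (5.46 to 16.7, log2 fold change -3.14, SE 0.38), with an edgeR adjusted p of 0.00651, and this call held without each of the 9 libraries in turn. Tac111 against Tac146 was not called (edgeR adjusted p = 0.214). Trdc overlaps Trdv5 and Gm43434 on the other strand, whose reads could be counted with it.

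Tcrg-C1, a gamma constant region (chromosome 13, 19214103-19217024, plus strand), had 0, 0 and 0 expected counts in Tac111, 0, 1 and 5 in Tac146, and 50, 25 and 13 in B6. It averaged 0.047 ± 0.0569 CPM in Tac146 and 0.831 ± 0.383 CPM in B6 (SD, n = 3 each), and every Tac library lay below every B6 library. Tac111 was at least 27.1-fold lower than B6 (edgeR adjusted p = 0.0115). Tac146 was 17.9-fold lower (counting interval 7.91 to 50.1), which edgeR did not call (adjusted p = 0.115) and DESeq2 did (adjusted p = 0.00321). The log2 fold change of -4.03 between Tac146 and B6 was -5.67 without Tac146 replicate 4, which held 5 of the 6 counts, and -3.42 without Tac146 replicate 2. Of its 50-base windows, 17.9% also occur in Tcrg-C2 and 17.6% in Tcrg-C3, so its counts may include reads of those copies.

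The other gamma constant regions did not all follow Tcrg-C1. Tcrg-C2 had 0, 0 and 0 expected counts in Tac111, 1, 0 and 0 in Tac146, and 11, 4 and 16 in B6, and Tcrg-C3 had 0 in all 9 libraries. Tcrg-C4, which shares no 50-base window with the others, had 0, 0 and 0 in Tac111, 11, 9 and 14 in Tac146, and 20, 14 and 6 in B6, so Tac146 and B6 overlapped. None of these 3 genes passed the filter on low counts, and they were not tested. Cd163l1 (chromosome 7, 140218267-140231145, plus strand) had the same order as Tcrg-C4: 0, 0 and 0 expected counts in Tac111, 17, 17 and 14 in Tac146, and 26, 18 and 19 in B6. The level in Tac111 was at least 19.4-fold below that in B6 (edgeR adjusted p = 0.00142). It was at least 12.1-fold below that in Tac146 (edgeR adjusted p = 0.00262), and both calls held in every alternative that tested the gene. Between Tac146 and B6 its CPM did not overlap but the 1.6-fold lower level in Tac146 (counting interval 1.08 to 2.38) was not called by edgeR (adjusted p = 0.75) or DESeq2 (0.954).

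**Figure D2:**
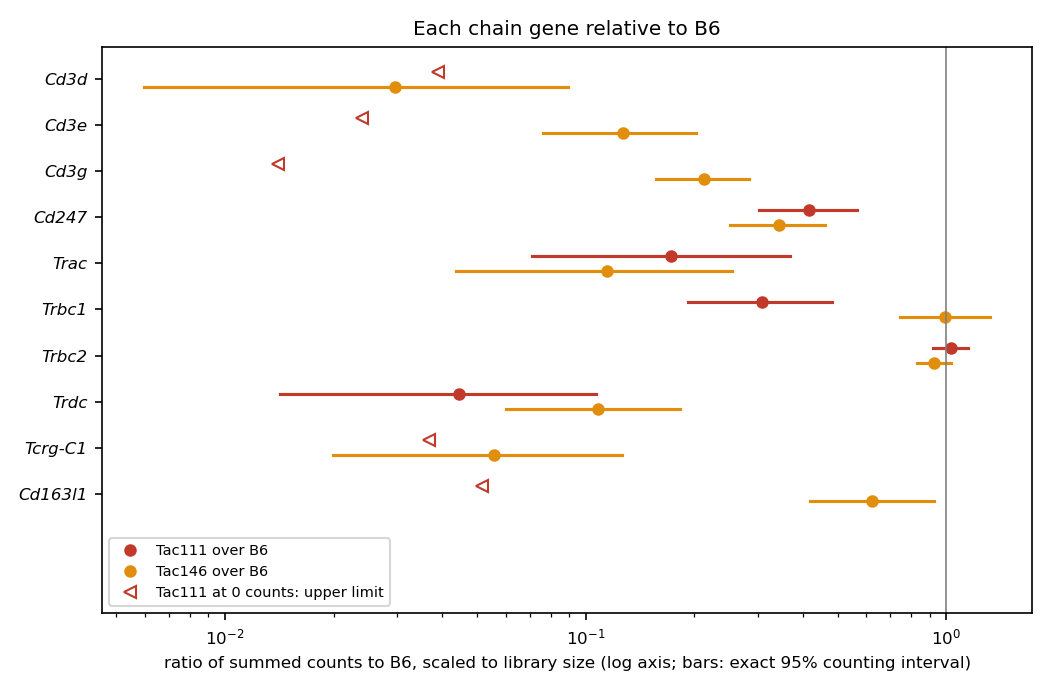
Ratio of summed counts in Tac111 (red) and in Tac146 (orange) to B6, scaled to library size, for each gene (log horizontal axis, grey line at equal levels). Bars are exact 95% counting intervals, and open triangles are upper limits where Tac111 had 0 counts. Trbc2 lies at the line for both strains, with ratios of 1.03 and 0.924.

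By count, edgeR called 7 of the 10 genes lower in Tac111 than in B6, where 2.8% of all 16523 genes tested were called lower. It called 5 lower in Tac146 than in B6, against 0.109% of all genes, and 4 lower in Tac111 than in Tac146, against 6.27%. DESeq2 called 9, 7 and 4 of them lower in these comparisons, where its shares over all genes were 4.74%, 0.352% and 9.92%. All Tac111 libraries lay below all B6 libraries for 9 of the 10 genes (15.8% of all genes tested), all Tac146 libraries below all B6 libraries for 8 (6.29%), and all Tac111 libraries below all Tac146 libraries for 4 (18.4%). The median log2 fold change of the 10 genes was -5.91 in Tac111 against B6, -2.56 in Tac146 against B6 and -2.33 in Tac111 against Tac146, beside 0.02, 0.01 and 0.02 over all genes. These counts and medians describe the genes and support nothing further: Cd3d, Cd3e, Trac, Trdc and Tcrg-C1 reached the level of the filter, 0.302 CPM, in B6 libraries only, so that they passed the filter through B6 alone. The 2 comparisons with B6 share the B6 libraries. Among the calls of Tac146 against B6, leaving out 1 library left between 1 and 4 of the 5, and only Trdc was called in all 9 of these fits. The count was 1 without Tac146 replicate 3 or B6 replicate 3, 2 without Tac146 replicate 4, B6 replicate 1 or B6 replicate 2, and 3 without Tac146 replicate 2 or Tac111 replicate 3.

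As a share of the counts of Trac, Trbc1, Trbc2, Trdc and Tcrg-C1, the gamma delta regions Trdc and Tcrg-C1 made up 0.541%, 1.49% and 0.356% in Tac111, 1.62%, 2.02% and 3.77% in Tac146, and 22.1%, 19.6% and 18.7% in B6. The B6 libraries stood apart from all others, and their lowest exact binomial 95% limit, 14.0%, was above the highest limit of any Tac library, 6.5%. The mean share was 0.796% ± 0.61 in Tac111, 2.47% ± 1.14 in Tac146 and 20.1% ± 1.78 in B6 (SD, n = 3 each). Without Tac111 replicate 2 the Tac111 mean was 0.448%. The beta regions alone held 97.9% ± 0.888 in Tac111, 96.7% ± 1.59 in Tac146 and 74.9% ± 1.97 in B6, and Trac held 1.29%, 0.846% and 5.0%. In both Tac strains the denominator was nearly all beta. With Trbc1 and Trbc2 left out, Trdc made up 37.8% ± 20.4 of Trac and Trdc in Tac111, 69.8% ± 13.9 in Tac146 and 70.8% ± 3.86 in B6 (SD, n = 3 each). That share rests on 13 counts in Tac111 and 23 in Tac146, against 171 in B6, and its library intervals overlapped across strains. None of these shares is scaled to transcript length, and the longest Trdc transcript has 3865 bases, against 935 for Trac. They therefore compare libraries and not chains. Per kilobase Trdc averaged 0.299 CPM in B6, below Trac at 0.513 CPM, and it was below Trac in both Tac strains too. With Tcrg-C2, Tcrg-C3 and Tcrg-C4 added, the gamma delta share was 0.796% in Tac111, 6.27% in Tac146 and 25.6% in B6.

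**Figure D3:**
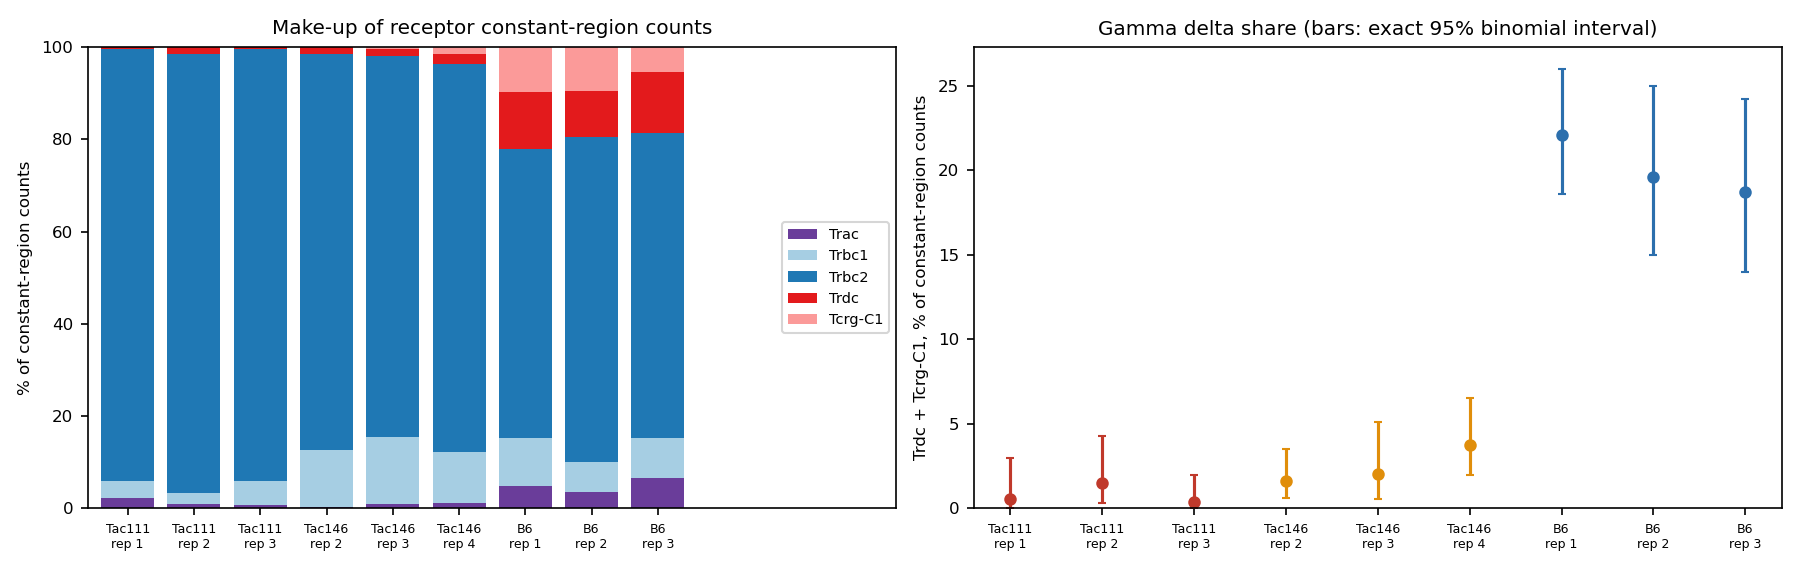
Left, share of each constant-region gene in the receptor constant-region counts of every library (stacked bars, %). Right, the share of Trdc and Tcrg-C1 together (%), with exact 95% binomial intervals. The B6 libraries lie at 18.7% to 22.1%, the Tac146 libraries at 1.62% to 3.77% and the Tac111 libraries at 0.356% to 1.49%.

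Variable, diversity and joining segments, which a complete receptor transcript carries beside its constant region, were found mostly in B6. Over 51 beta segment names, the summed expected counts were 3 in Tac111, 1 in Tac146 and 33 in B6, with 6 to 17 in each B6 library. Over 188 alpha names they were 2 in Tac111, 0 in Tac146 and 10 in B6. The beta segments thus had far fewer counts in both Tac strains, while the summed beta constant regions had 654 counts in Tac111, 857 in Tac146 and 753 in B6. Over 11 gamma names the sums were 0 in Tac111, 2 in Tac146 and 24 in B6, and over 10 delta names 3 in Tac111, 7 in Tac146 and 28 in B6. With such counts a segment that is at 0 may have been missed at this depth.

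The segments with the most counts in B6, named after their values were seen, were Trdv4, Tcrg-V5 and Tcrg-V6, which are known in the mouse from gamma delta T cells of skin and mucosa. Trdv4 had 3, 0 and 0 expected counts in Tac111, 3, 1 and 3 in Tac146, and 12, 3 and 11 in B6, which is 26 of the 28 delta segment counts in B6. Tcrg-V5 and Tcrg-V6 each had 0 in every Tac111 and Tac146 library, and 4, 2 and 3 in the B6 libraries. Segment reads are short matches to families of like genes, and reads across a junction may be lost in alignment, so the single segments are given as a description only.

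**Figure D4:**
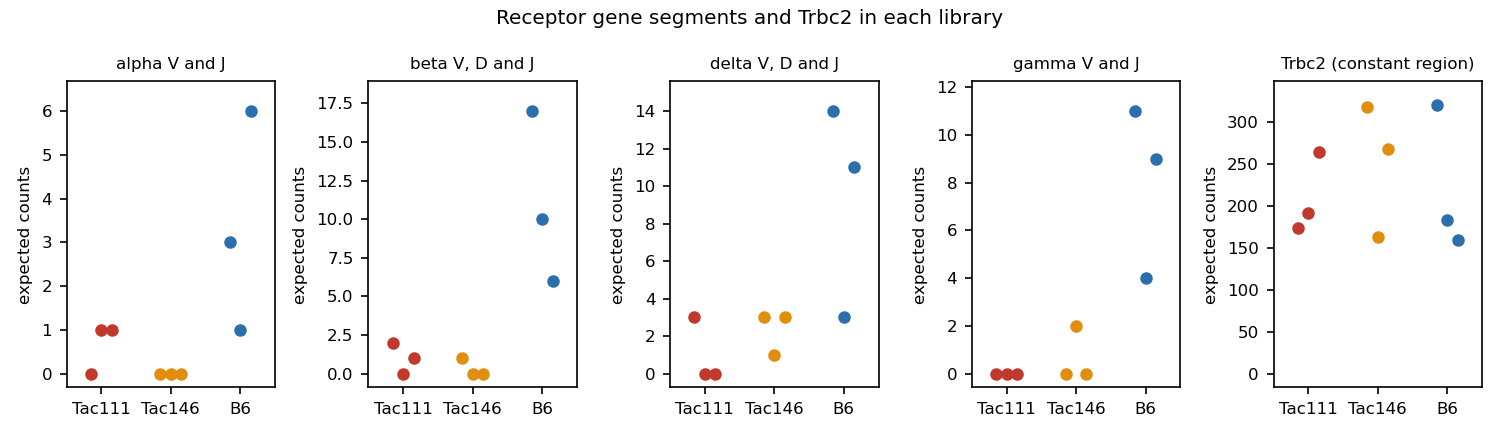
Summed expected counts of alpha, beta, delta and gamma variable, diversity and joining segments, and of Trbc2, in each library of Tac111, Tac146 and B6 (vertical axes from 0, a scale for each panel). Beta segments total 3, 1 and 33 counts in Tac111, Tac146 and B6, while Trbc2 overlaps among the strains.

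Genes of the pathway around the receptor were next, and their counts are read beside the shares of all genes tested that edgeR called lower: 2.8% in Tac111 against B6, 0.109% in Tac146 against B6 and 6.27% in Tac111 against Tac146. Listed genes at 0 in a strain, among them Cd6, Trat1, Skap1, Ncr1 and Rag2, passed the filter on low counts through other strains alone. The counts of calls in these lists are therefore a description and support nothing further. Of 27 tested genes of proximal receptor signalling, 12 were called lower in Tac111 than in B6, none in Tac146 than in B6, and 12 in Tac111 than in Tac146, with median log2 fold changes of -0.78, 0.06 and -0.56. Between Tac146 and B6, 5 of the 27 had an unadjusted edgeR p under 0.05, beside 1150 of all 16523 genes tested, and DESeq2 called 0. Lck, the kinase that phosphorylates ITAMs, averaged 0.27 ± 0.0509 CPM in Tac111, 1.19 ± 0.412 in Tac146 and 1.7 ± 0.364 in B6 (SD, n = 3 each, edgeR adjusted p = 0.00221 in Tac111 against B6). Zap70, the kinase that docks on phosphorylated ITAMs, averaged 0.0765 ± 0.0497 CPM in Tac111, 0.386 ± 0.0499 in Tac146 and 0.716 ± 0.242 in B6 (edgeR adjusted p = 0.00536). Ptprc, the phosphatase CD45 of all leukocytes, averaged 4.69 ± 0.316 CPM in Tac111, 11.5 ± 1.26 in Tac146 and 11.2 ± 0.592 in B6. In Tac111 against B6 its edgeR log2 fold change was -1.26 (edgeR adjusted p = 0.000389). Grap2 and Ptpn22 also fell in Tac111 against Tac146, with log2 fold changes of -1.84 and -1.6 (edgeR adjusted p = 0.00431 and 0.00559).

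Of 8 tested coreceptor and costimulation genes, 4 were called lower in Tac111 than in B6 and 3 in Tac111 than in Tac146, with medians of -1.4 and -0.69, beside 2.8% and 6.27% of all genes called lower. EdgeR called none in Tac146 against B6, where the median was -0.71 and DESeq2 called 1, Cd4. In that comparison 3 of the 8 had an unadjusted edgeR p under 0.05, beside 1150 of all 16523 genes. Cd6, a surface protein of T cells, had 0 counts in Tac111, 2 in Tac146 and 42 in B6, and passed the filter through B6 alone. These counts put Tac111 at least 13.0-fold below B6 (edgeR adjusted p = 0.0174). Icos averaged 0.111 CPM in Tac111, 0.53 CPM in Tac146 and 0.949 CPM in B6 (edgeR adjusted p = 0.0101 in Tac111 against B6). Cd7 averaged 0.248 CPM in Tac111, 1.02 CPM in Tac146 and 1.53 CPM in B6 (edgeR adjusted p = 0.00628), and Cd2 0.577, 1.48 and 1.53 CPM (edgeR adjusted p = 0.0373). The list did not fall as a whole. In Tac111 against B6 the uncalled genes Cd28, Cd5, Cd4 and Ctla4 had log2 fold changes of -0.05, 0.09, -1.41 and -1.07.

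Of 9 tested ITAM adaptors and natural killer receptors, 4 were called lower in Tac111 than in B6 and 4 in Tac111 than in Tac146, with medians of -1.26 and -1.19, and none in Tac146 against B6 (median 0.02), beside 2.8%, 6.27% and 0.109% of all genes. In Tac146 against B6 DESeq2 also called 0 and 0 had an unadjusted edgeR p under 0.05, beside 1150 of all 16523 genes. Ncr1, the activating receptor NKp46, had 0 counts in Tac111, 48 in Tac146 and 30 in B6. It was at least 9.25-fold lower in Tac111 than in B6, by the same limit of 3 counts (edgeR adjusted p = 0.0144). Set against Tac146 it was at least 12.1-fold lower (edgeR adjusted p = 0.00742). Klrk1, the receptor NKG2D, averaged 0.289 ± 0.0552 CPM in Tac111, 1.77 ± 0.248 in Tac146 and 1.5 ± 0.218 in B6 (edgeR adjusted p = 0.000878 in Tac111 against B6). Klrb1c and Klrc1 fell as well in Tac111 against B6, with log2 fold changes of -3.63 and -3.49 (edgeR adjusted p = 0.0122 and 0.0311). Of 13 natural killer and ILC1 markers, 8 were at 0 in all Tac111 libraries and none in Tac146 or B6. Their summed level was 6.83 to 9.17 CPM in Tac111, 21.9 to 27.9 in Tac146 and 20.1 to 24.2 in B6, and their part in the zeta level was not tested.

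Of 10 tested gamma delta T cell genes, 2 were called lower in Tac111 than in B6 and 3 in Tac111 than in Tac146, and none in Tac146 than in B6, with medians of -0.17, -0.24 and -0.02, beside 2.8%, 6.27% and 0.109% of all genes called lower. Between Tac146 and B6, 1 of the 10 had an unadjusted edgeR p under 0.05, near the share of all genes (1150 of 16523), and DESeq2 called 0. Itgae, the CD103 integrin chain of lymphocytes within epithelia, averaged 0.21 ± 0.143 CPM in Tac111, 4.63 ± 0.699 in Tac146 and 4.78 ± 0.783 in B6 (SD, n = 3 each, edgeR adjusted p = 0.000107 in Tac111 against B6). Cd69, a marker of activated and resident lymphocytes, averaged 0.129 CPM in Tac111, 0.671 CPM in Tac146 and 0.832 CPM in B6 (edgeR adjusted p = 0.0074). The Itgae averages of Tac146 and B6 were thus within an SD of each other, while Trdc was 9.24-fold lower in Tac146. Maf, a transcription factor found in many cell types, fell in Tac111 against Tac146 with a log2 fold change of -0.6 (edgeR adjusted p = 0.0226).

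Of 15 tested epithelial ligand genes, which encode Skint, butyrophilin-like and NKG2D ligand proteins, Btnl9 alone was called in Tac111 against B6, at 1.37 ± 0.136 CPM in Tac111 and 2.82 ± 0.154 in B6 (edgeR adjusted p = 0.012). A count of 1 of 15 is near the 2.8% of all genes called lower in that comparison. EdgeR and DESeq2 called 0 in Tac146 against B6, where 2 had an unadjusted edgeR p under 0.05, beside 1150 of all 16523 genes. In Tac111 against Tac146, Btnl9, Skint2 and Skint3 fell, with log2 fold changes of -0.86, -1.57 and -0.76 (edgeR adjusted p = 0.024, 0.0226 and 0.0464), beside 6.27% of all genes called lower. The medians were -0.18 in Tac111 against B6, 0.45 in Tac146 against B6 and -0.76 in Tac111 against Tac146.

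**Figure D5:**
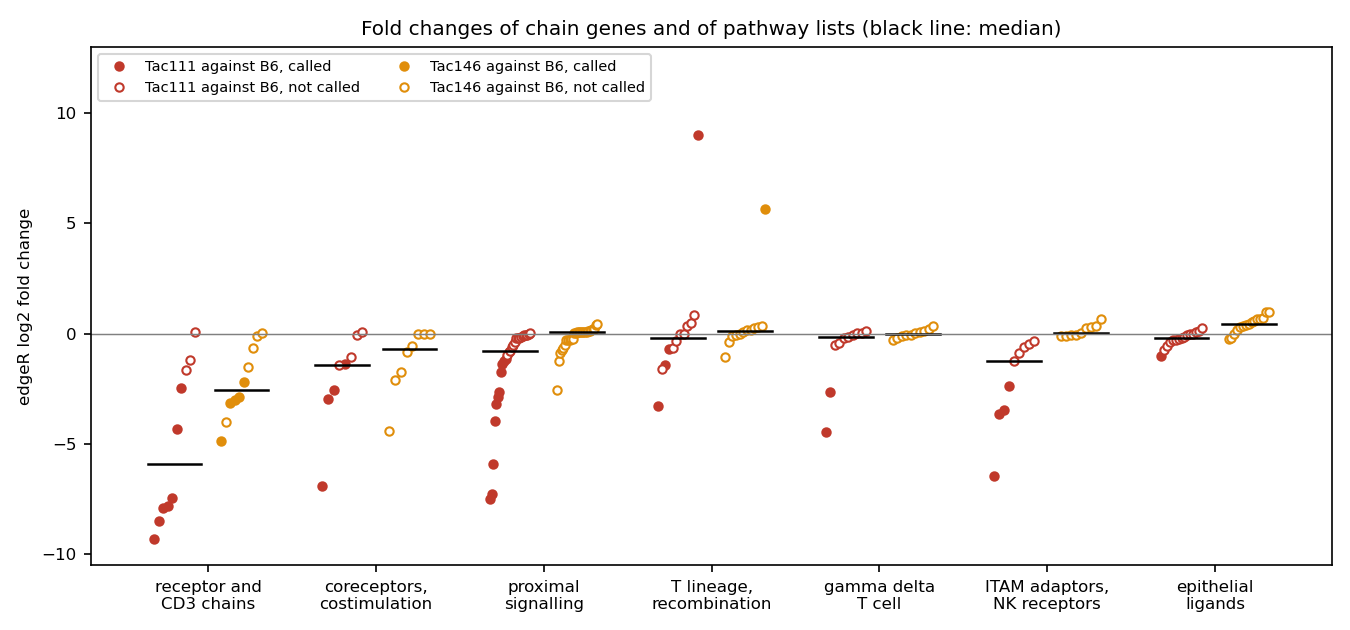
EdgeR log2 fold change against B6 (vertical axis) of the 10 receptor and CD3 genes and of the tested genes of 6 pathway lists, in Tac111 (red) and Tac146 (orange). Filled points were called, open ones were not, and black lines are medians, -5.91 and -2.56 for the 10 genes. For genes at 0 in a strain the fitted value is no bound.

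Of 12 tested genes of the T lineage and of recombination, 3 were called lower and 1 higher in Tac111 than in B6. None was called lower and 1 higher in Tac146 than in B6, and 4 lower and 1 higher in Tac111 than in Tac146. Over all 16523 genes tested, 462 were called lower and 168 higher in Tac111 than in B6. The counts were 18 and 32 in Tac146 against B6, and 1036 and 433 in Tac111 against Tac146. Rag2 and Rag1 encode the partners of the recombinase that joins receptor segments. Rag2 had 51, 47 and 75 expected counts in Tac111, 0, 0 and 0 in Tac146, and 0, 0 and 0 in B6 (edgeR adjusted p = 0.00124 in Tac111 against B6). Rag1 had 3, 0 and 1 expected counts in Tac111, 71, 59 and 75 in Tac146, and 1, 0 and 2 in B6 (edgeR adjusted p = 0.0021 in Tac146 against B6). Each Tac strain was thus high for the transcript of a different recombinase gene, and whether those transcripts encode a whole protein cannot be read from counts per gene. B230118H07Rik overlaps Rag1 on its own strand and Rag2 on the other, and its reads could be counted with either. Ikzf1, Ikzf3 and Ets1, transcription factors of lymphocytes, fell in Tac111 against B6 with log2 fold changes of -1.43, -3.29 and -0.68 (edgeR adjusted p = 0.00224, 0.0249 and 0.0233). Ikzf1, Runx3 and Ets1 fell in Tac111 against Tac146 too, and the list's medians were -0.18 in Tac111 against B6, 0.11 in Tac146 against B6 and -0.38 in Tac111 against Tac146.

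Il2rg, the receptor chain shared by many interleukins of lymphocyte growth, was nearly absent from Tac111 as well. Named after its values were seen, it had 4, 3 and 4 expected counts in Tac111, 242, 131 and 166 in Tac146, and 216, 148 and 145 in B6. Il2rg overlaps Gm20489 on its own strand, whose reads could be counted with it. The part of Il2rg in the level of Cd163l1 or the CD3 chains was not tested.

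The genes whose levels over the 9 libraries were most like Cd3e, by Pearson r of log2(CPM + 0.5) among 13848 genes, were Cd40 (r = 0.958), Nt5dc3 (0.944), Cd59a (0.942), Depp1 (0.931) and 2810002D19Rik (0.93). Those most like Trdc were Cd59a (0.953), 2810002D19Rik (0.942), Cd40 (0.93), Slc6a15 (0.909) and Lmbrd1 (0.905). Cd59a, an inhibitor of complement lysis, averaged 10.4 ± 0.964 CPM in Tac111, 9.37 ± 1.26 in Tac146 and 36.4 ± 1.22 in B6 (SD, n = 3 each). The 9 points fall into 3 strains, so r here mostly repeats the step between strains and is given as a description.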

How the data were processed

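RNA of labial mucosa was sequenced in 9 libraries, 3 for each of 3 strains, made with a stranded mRNA kit per the labels' protocols. Each deposited file gives a gene symbol and its expected count, an estimate of reads that can hold fractions, per the file headers. STAR, RSEM and GRCm38 were used, per the submitters' processing notes. Versions, the annotation and the strand setting of the counting are absent from the sources used here.

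Names on several lines were summed, except date-like names (27 lines per library), which stand for different genes and were kept apart. This left 55342 names. Expected counts were rounded for tests. EdgeR 4.0.16 (quasi-likelihood, TMM factors, its own filter) ran in R 4.3.3 on all 9 libraries, fitting a mean for each strain, which left 6 residual degrees of freedom. Benjamini-Hochberg adjustment covered 16523 genes (threshold 0.05). SE is the log2 fold change over the square root of F. Fold differences given with a counting interval are ratios of summed counts scaled to library size, with exact 95% intervals. Limits for a strain at 0 take 3 counts. The test was first tried on simulated counts.

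Members and lists were chosen with earlier results of these data known. All 10 members were named, with at most 4 genes per list, those of lowest adjusted p (1 of them is not reported here), and the 5 genes most like Cd3e and Trdc (mean of 1 CPM or more in the highest strain). Alternatives were median-ratio factors, DESeq2 1.42.0, no filter, a replicate block, a filter of 1 CPM in 3 libraries, a fit of only the 6 libraries compared, and each library left out. Tables and figures used Python 3.11.15, pandas 2.3.3, scipy 1.17.1 and matplotlib 3.10.9.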

Additional observations from a re-analysis of the deposited data

How the results depend on the processing

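Trbc2 and Trbc1, whose fold changes were near 0, changed sign in 7 cases, all uncalled by edgeR. Trbc2 in Tac111 against B6 had a log2 fold change of -0.06 without Tac111 replicate 3 and -0.07 without B6 replicate 3 (range with 1 library left out -0.07 to 0.21), and in Tac146 against B6 0.04 without B6 replicate 1 and 0.0 without Tac146 replicate 3 (range -0.25 to 0.04). Trbc1 in Tac146 against B6 was at -0.15 without B6 replicate 2, -0.09 without B6 replicate 3 and -0.08 without Tac146 replicate 2 (range -0.15 to 0.47). Over the single genes, 365 values kept direction and side of the threshold, 41 lost the call and 9 gained it.

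A filter of 1 CPM in 3 libraries tested 3 of the 10 genes and called 1, Cd3g, in each comparison. With only the 6 libraries compared, 3 genes were called in Tac146 against B6 and 2 in Tac111 against Tac146. Leaving out 1 library gave 6 to 8 genes in Tac111 against B6, 1 to 4 in Tac146 against B6 and 2 to 4 in Tac111 against Tac146. Over all genes, the calls in Tac111 against B6 numbered 630, and 1020 with no filter, 1161 with DESeq2 and 295 to 958 with 1 library left out. Those in Tac146 against B6 numbered 50, and 129 with no filter, 131 with DESeq2, 26 with only the 6 libraries and 33 to 64 with 1 left out. Those in Tac111 against Tac146 numbered 1469, and 641 with only the 6 libraries, 2572 with DESeq2 and 470 to 1829 with 1 left out. In counts not scaled to transcript length, Trdc made up 37.8% of Trac and Trdc in Tac111, 69.8% in Tac146 and 70.8% in B6. With the other gamma regions the gamma delta share was 6.27% in Tac146 and 25.6% in B6.

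Replicate numbers showed no clear pairing: deviations of same-numbered libraries correlated at -0.0732, 0.0109 and 0.0105 between Tac111 and B6, 0.0427 and 0.0749 between Tac146 and B6, and -0.0695 and 0.188 between Tac111 and Tac146. Libraries of different number correlated at -0.272 to 0.205. With 3 libraries per strain such values cannot exclude a pairing. With the replicate block, edgeR called 7 of the 10 genes in Tac111 against B6, 0 in Tac146 against B6 (DESeq2 without a block called 7, against 0.352% of all genes lower) and 3 in Tac111 against Tac146, and 874, 44 and 632 genes in all. At an unadjusted edgeR p under 0.05 without the block, 7 of the 10 passed in Tac146 against B6, beside 1150 of all 16523 genes tested. In that comparison Trdc had adjusted p = 0.0838 with the block. The causes of these differences were not tested.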

Other observations

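Ptcra, which encodes the stand-in alpha chain of the receptor of thymocytes, was named after its values were seen. It had 6, 6 and 7 expected counts in Tac111, 4, 2 and 5 in Tac146, and 4, 0 and 2 in B6. In CPM the Tac111 libraries, at 0.192 to 0.217, lay above all Tac146 and B6 libraries. The counts are few, and the gene was not tested.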
